A study of Mus musculus with 36 samples.

Results

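Urea cycle and amino acid catabolism was followed through 42 genes that encode the enzymes and mitochondrial carriers by which liver breaks down amino acids and turns their nitrogen into urea. The members were chosen by name from the 21955 gene symbols in each count table, by a rule that uses no measured value but was written with earlier results of these data known. All 42 were in the tables, and 41 of them were among the 13436 genes with enough counts to test. The libraries were made from ribosome-depleted total RNA of frozen whole liver of C57BL/6JN mice, at 6 time points of liver regeneration labelled before, 48, 72, 96, 120 and 240. Young animals were 4 months old and old animals 18 months old, which makes 12 groups of 3 libraries and 36 in all. The design text calls them biological replicates. The labels give neither the unit of the time points nor how regeneration was started, and the only treatment they name is age. Levels are given in CPM, read counts scaled to library size, and changes as log2 fold changes with their standard errors.

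The urea cycle runs in periportal hepatocytes. Carbamoyl phosphate is made in mitochondria by CPS1, which works only when bound by N-acetylglutamate, the product of NAGS; ornithine transcarbamylase, argininosuccinate synthase, argininosuccinate lyase and arginase then pass the nitrogen on to urea, while carriers move ornithine and aspartate across the mitochondrial membrane. The catabolic enzymes around the cycle degrade tyrosine, tryptophan, serine, glycine, histidine, proline, glutamine, methionine, cysteine and lysine, and many of their genes are known to respond to glucagon, glucocorticoids and feeding.

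Total counts ran from 2328233 to 6034446 per library, with a median of 4439170, and the 42 genes took 1.31% to 2.96% of them. The hepatocyte markers checked against the tissue label were 8 of 8 in the tables, none at 0 in any group, with summed levels of 47150.0 to 87133 CPM. The counts of Ass1, which encodes argininosuccinate synthase, could not be read as a level. It had 0 to 6 counts per library and 55.3% of its transcripts' 50-base stretches also occur in other annotated transcripts, most of them in the processed pseudogene Gm5424. Other members share exons or sequence with neighbours or copies, so that their counts are uncertain: Afmid (46.6% of exon bases overlapped, by Gm20708 and Tk1), Aldh4a1 (32.5%, by Gm21969), Sds (29.6%, by Gm15690 and Plbd2), Nags (15.6%, by the antisense Gm11586), Gstz1 (12.2%, by Gm6566 and Pomt2) and Bhmt, 61.5% of whose stretches occur elsewhere, mostly in Gm5096. Whether counting used strand is not given in the sources used here. In whole liver, fewer cells of a type and less RNA per cell cannot be told apart.

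The old libraries at 48 stood apart from each other, and the counts of members, related genes and cell type markers called at 48 are given with and without some of them. Old 48 replicate 2 lay furthest from its group mean over all tested genes, at a root mean square of 0.583 on the log2 scale against 0.24 to 0.457 in the other 35 libraries. In that library Mki67, a proliferation gene, was at 14.0 CPM and Alb, which encodes albumin, at 4057 CPM. In old 48 replicate 1 they were at 154 and 4768 CPM, and in replicate 3 at 561 and 9078 CPM. The young 48 libraries held 1404 to 2867 CPM of Mki67. Summed macrophage markers were 206 CPM in replicate 2 against 534 and 729 in the others, and summed cholangiocyte markers 215 against 68.0 and 56.7. The part of these differences in the results below was not tested.

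Promoter sequences are shown for 4 members, picked partly by their results and partly by their motifs. Nags rose after the start of regeneration, and Otc was the urea cycle gene that fell most at 48 in old liver. Hgd fell at 48 and 72 in both ages. Hal fell at 48 in old liver, and its window, like that of Hgd, holds 3 of the motifs searched. The sequences are the 250 bases before the transcription start in RefSeq's GRCm38.p6 annotation, all on the plus strand. They lie at chr11:102145263-102145512 for Nags, chrX:10252055-10252304 for Otc, chr16:37579903-37580152 for Hgd and chr10:93488518-93488767 for Hal. Capitals mark TATAAA, an element of core promoters just upstream of the start, a CCAAT box, searched by the letters of its name, the core of an HNF4 element (CAAAGTCC) or a C/EBP element (TTGCNNAA), each searched on both strands with overlaps allowed; a motif read on the minus strand appears as its reverse complement.
Nags: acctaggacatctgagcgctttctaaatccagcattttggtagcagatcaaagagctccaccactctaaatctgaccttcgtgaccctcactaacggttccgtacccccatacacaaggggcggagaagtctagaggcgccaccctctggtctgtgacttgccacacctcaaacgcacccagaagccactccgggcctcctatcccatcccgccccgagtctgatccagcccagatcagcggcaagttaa
Otc: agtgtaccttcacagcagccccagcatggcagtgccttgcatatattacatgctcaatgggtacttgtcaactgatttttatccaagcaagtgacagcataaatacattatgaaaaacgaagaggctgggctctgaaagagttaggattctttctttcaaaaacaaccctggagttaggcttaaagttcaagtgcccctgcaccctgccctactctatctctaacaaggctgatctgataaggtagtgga
Hgd: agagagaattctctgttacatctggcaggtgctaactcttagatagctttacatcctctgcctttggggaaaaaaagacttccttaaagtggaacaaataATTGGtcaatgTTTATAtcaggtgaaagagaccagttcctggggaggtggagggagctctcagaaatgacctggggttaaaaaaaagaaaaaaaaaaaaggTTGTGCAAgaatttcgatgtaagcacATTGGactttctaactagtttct
Hal: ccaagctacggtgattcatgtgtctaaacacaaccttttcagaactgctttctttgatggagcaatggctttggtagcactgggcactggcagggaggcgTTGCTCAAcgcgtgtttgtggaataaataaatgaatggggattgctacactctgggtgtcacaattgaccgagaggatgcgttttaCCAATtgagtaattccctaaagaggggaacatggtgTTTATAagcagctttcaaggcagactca
The windows of Nags and Otc hold none of these letters. Nor do those of Haao and Prodh, not shown, which had the smallest adjusted p at 48 in old liver. Promoters of 300 bases, which add the 50 after the start, were listed for 31 of the 42 members, 33 promoters in all. A CCAAT box was in 18 of the 33, against 37.4% of all 32851 promoters listed, and the element TATAAA in 4 of 33, against 13.6%. A C/EBP element was in 4 of 33, against 10.8%, and the HNF4 core in 0 of 33, against 1.42%. A match is a description of the letters only.

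In young liver the genes were called mainly at 48 and 72, most of them lower, and their median change was near 0 from 96 on. At 48 against before, 11 of the 41 tested members passed an adjusted p of 0.05, while 21.9% of all tested genes did. Of these, 10 fell (Asl, Tat, Hgd, Fah, Tdo2, Haao, Agxt, Prodh, Got1 and Cdo1), where 9.79% of all genes fell, and Nags rose; over all genes 1315 fell and 1634 rose, or 883 and 2055 when libraries were scaled by total counts. The median log2 fold change over the 41 was -0.56, against -0.01 over all genes. Of the 41, 32 were negative, against 50.9% of all genes. At 72 the count was 4 of 41, or 9.76%, below the 17.4% of all genes called. Hgd, Haao and Cdo1 fell and Nags rose. The median was -0.29 against 0.01, and 35 of 41 were negative, against 49% of all genes. No member was called at 96, 120 or 240, where 1.4%, 0.581% and 0.246% of all genes were; 3, 3 and 0 members had an unadjusted p under 0.05, DESeq2 called 0 in each, and the medians were -0.03, 0.01 and -0.08. With only the 2 groups compared in the fit, 21 members were called at 48, 9 at 72, 2 at 96 and 2 at 120, with 27%, 16.1%, 4.86% and 2.34% of all genes called. The count at 48 was 6 without young before replicate 2, young 48 replicate 1 or young 48 replicate 3, and that at 72 was 2 without young 72 replicate 2. Over all genes at 72, 1237 rose and 1103 fell, or 2096 and 537 with total-count scaling.

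In old liver members were called mainly at 48 and 72, nearly all of them lower. At 96 and 120 the called shares, 4.88% and 2.44% of the 41, were below those of all genes. At 48 against before, 20 of 41 passed, with 24.1% of all genes called: 19 fell (Cps1, Otc, Asl, Hpd, Hgd, Gstz1, Afmid, Haao, Sds, Agxt, Hal, Uroc1, Amdhd1, Prodh, Aldh4a1, Gls2, Gpt, Gnmt and Cth) and Sdsl rose, where 12% of all genes fell. The median was -0.67 against 0.01 over all genes. At 72, 9 of 41 were called, with 12.4% of all genes: Asl, Tat, Hgd, Haao, Sds, Prodh, Gnmt and Cdo1 fell, Nags rose, and the median was -0.61 against -0.01. At 96 only Haao and Sds fell, 2 of 41 with 6.82% of all genes called. The median was still -0.49 against -0.02, and 33 of 41 were negative, against 51.8% of all genes. At 120 Gldc alone rose, with 3.87% of all genes called and a median of -0.09, and at 240 no member was called (0.156% of all genes; 2 members with an unadjusted p under 0.05; 0 by DESeq2). Each age's comparisons share its 3 libraries from before, so their values are set side by side and not correlated. Over all genes, 879 rose and 781 fell at 72 and 505 and 412 at 96, or 1279 and 489 and 657 and 279 with total-count scaling.

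The old counts depended on single libraries. At 48, 5 members were called, all lower, when replicate 3 was the only old 48 library (Hgd, Haao, Prodh, Aldh4a1 and Gpt; 4.32% of all genes called), with a median of -0.66; this choice was made after the values were seen and assumes that the lone library varies like the other groups. Without old 48 replicate 2 the count was 17, with Nags among them and higher (16.8% of all genes), and without old before replicate 3 it was 13. With only the 2 groups in the fit it was 5 (Hgd, Sds, Hal, Prodh and Gls2, with 1.79% of all genes called). Every other old 48 call was lost in that fit, which is mostly not repeated for single genes below. At 72 the count fell to 4 without old before replicate 2, 3 without old before replicate 3 and 5 without each of the old 72 libraries. At 96 it ran from 0 without old before replicate 3, through 1 without old 96 replicate 1 or 2 and 4 without old before replicate 1, to 7 without old 96 replicate 3. At 120 it was 0 without old before replicate 2 or 3 or old 120 replicate 2 and 2 without old before replicate 1 or old 120 replicate 3.

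**Figure D1:**
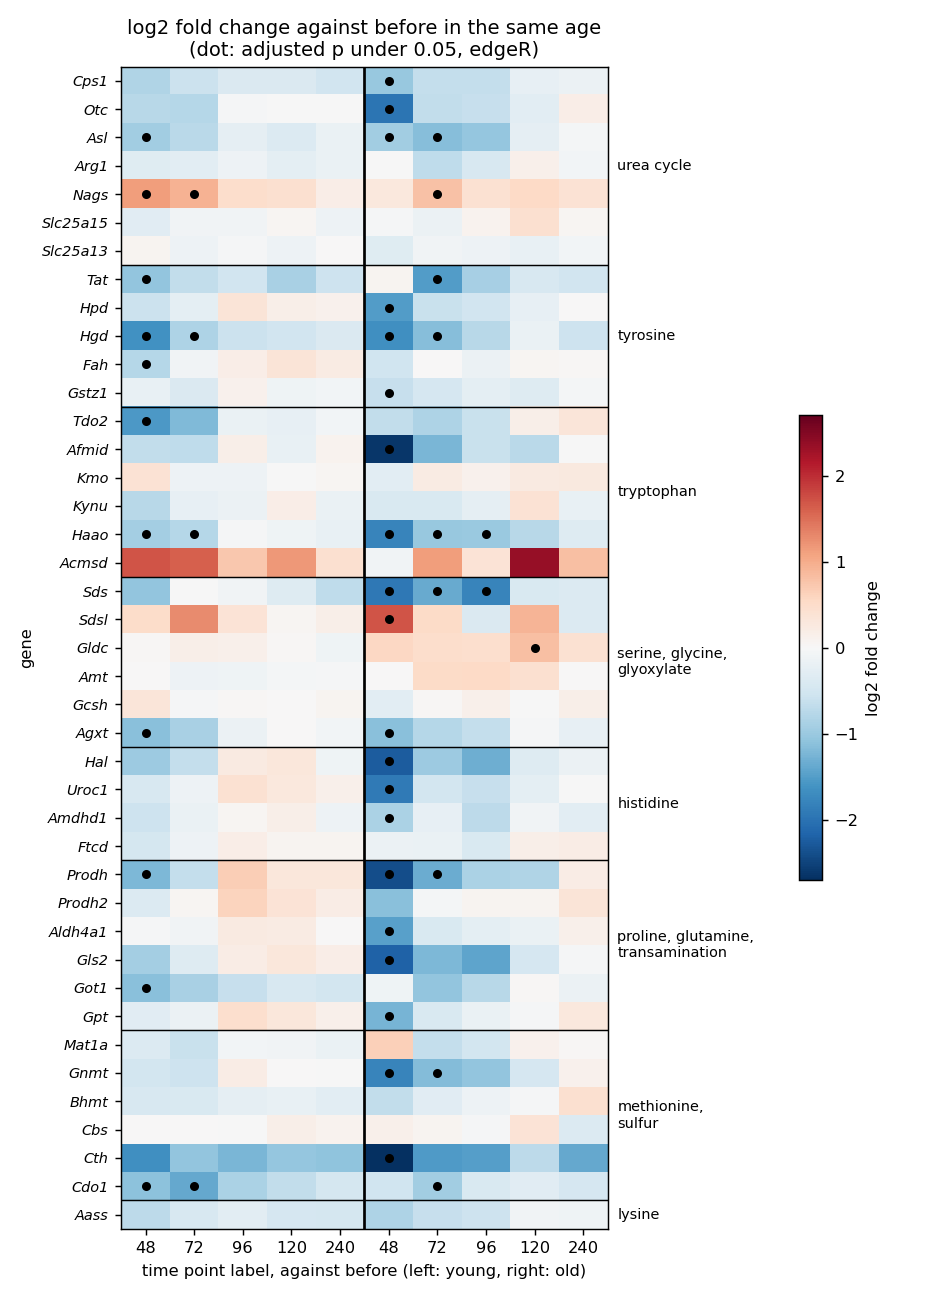
Log2 fold change against before in the same age for the 41 tested genes (rows, grouped by pathway) at 5 later time points in young (left) and old (right) liver; red is higher, blue lower, and a dot marks an adjusted p under 0.05. Blue fills most of both columns for 48, with 11 dots in young and 20 in old liver. It also fills most of both columns for 72, where 35 genes were negative in young and 32 in old liver. At 96 it stays in the old column, with 33 genes negative.

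Per library, the median of the 41 genes relative to their own age's mean before was -0.90, -0.43 and -0.37 in young liver at 48 and -1.27, -0.71 and -0.66 in old liver at 48. All 6 were below the 6 libraries from before, which lay between -0.12 and 0.22. At 96 the young libraries were at -0.10 to 0.11 and the old at -0.56 to -0.20, which did not overlap. Old 120 replicate 2 stood at 0.41 while the other old 120 libraries were at -0.51 and -0.31. Of the 41 genes, 25 had their lowest mean at 48 in young liver and 26 in old liver, and 10 and 9 at 72. The share over all genes is not given for this count.

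**Figure D2:**
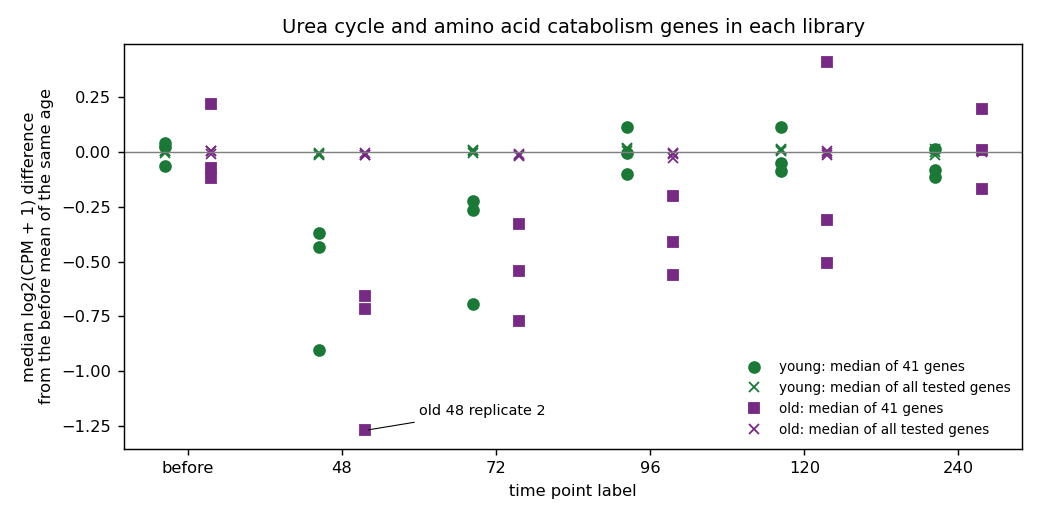
Median difference in log2(CPM + 1) from the mean before of the same age, for each library, over the 41 genes (filled symbols) and over all tested genes (crosses), by time point label. The crosses sit near 0 while the filled symbols drop at 48, lowest in old 48 replicate 2 at -1.27.

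Markers of other liver cells also moved. Over all genes, 21.9% and 17.4% were called in young liver at 48 and 72, and 24.1% and 12.4% in old liver. Of 8 endothelial markers, 4 fell in young liver at 48 and 4 at 72, and 3 fell in old liver at each; their summed level was 842 to 907 CPM before and 455 to 611 CPM at 48 in young liver, and 698 to 1007 CPM and 553 to 721 CPM in old liver. None was at 0. Of 9 macrophage markers 1 rose in young liver at 48 and 3 fell in old liver at 48, with summed levels of 536 to 707 and 206 to 729 CPM. Hepatocyte markers summed to 65837 to 73472 CPM before and 67992 to 78719 CPM at 48 in young liver, and to 54760.2 to 70362 and 67034 to 80484 CPM in old liver. Of the 8, none was called in young liver at 48, and 3 fell and 2 rose in old liver at 48. Of 3 tested lymphocyte markers, 2 fell in old liver at 48; the 8 listed summed to 10.7 to 24.8 CPM before and 1.42 to 9.82 CPM at 48. Without old 48 replicate 2, the old calls at 48 were 1 endothelial and 2 macrophage markers lower, 3 hepatocyte markers higher and 1 lymphocyte marker lower; with replicate 3 as the only old 48 library no marker of these 4 cell types was called. Of 8 stellate cell markers, 1 fell in young liver at 48, and 3 rose and 1 fell at 72. In old liver 1 fell at 48 and 2 at 72. Of 3 tested cholangiocyte markers, 2 rose in young liver at 72. Of 2 tested neutrophil markers, 1 rose in young liver at 48 and 1 at 72. Neither of these lists had a call in old liver at 48 or 72. Of 12 proliferation genes, 11 rose in young liver at 48, and 4 rose and 1 fell in old liver at 48. In old liver at 48 their summed level was 437, 94.8 and 848 CPM in replicates 1 to 3. Their part in the results was not tested.

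Among the urea cycle genes the calls were few and not all in 1 direction. Of the 7 tested, at 48 Asl fell and Nags rose in young liver and Cps1, Otc and Asl fell in old liver; at 72 only Nags passed in young liver, and Asl and Nags in old. Arg1 and the carriers Slc25a15 and Slc25a13 passed in no comparison.

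Cps1 (chr1:67123026-67231259, plus strand), the entry enzyme, stood at 3215, 2849.8 and 3541 CPM before in young liver, 1829, 2008 and 1602 at 48 and 2067, 2147 and 2212 at 72, with 1971 to 3082 in the 9 later libraries. In old liver it was at 2079.5, 2126 and 3061 before, 1775, 797 and 998 at 48, 784, 1808 and 2034 at 72 and 935 to 3372 later. All libraries at 48 lay below all from before in each age. The fold change at 48 was -1.03 ± 0.34 in old liver (adjusted p = 0.0265, edgeR's quasi-likelihood test) and -0.82 ± 0.34 in young liver, where it did not pass (0.0781). The old call was lost without old before replicate 3, old 48 replicate 2 or old 48 replicate 3.

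Otc (chrX:10252305-10321024, plus strand), which joins carbamoyl phosphate to ornithine, was at 180.1, 162 and 164 CPM in old liver before and at 11.6, 14.4 and 103 at 48. Thus 2 libraries at 48 were far below those from before but still detected. The third was within the range of old libraries at 72 (95.0, 142 and 81.2). Later old libraries held 69.3 to 233 CPM. In young liver the values were 182, 199 and 265 before, 119.8, 165 and 97.6 at 48, 104, 125 and 148 at 72 and 197 to 244 later. Old and young libraries at 48 overlapped in range through old replicate 3. The old change at 48 was -1.96 ± 0.49 (adjusted p = 0.00551), and with replicate 3 alone it was -0.68 and not called; the young change was -0.76 ± 0.47 (0.272).

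Asl (chr5:130011258-130029247, minus strand), argininosuccinate lyase, went from 431, 569 and 417 CPM to 253, 292 and 198 at 48 in young liver and from 423, 445 and 573 to 278, 322 and 151 at 48 and 186, 237 and 231 at 72 in old liver. The groups did not overlap. Its changes were -0.93 ± 0.34 (adjusted p = 0.0455), -0.94 ± 0.34 (0.0407) and -1.14 ± 0.34 (0.0257); these 3 calls were lost in 9 of 13, 8 of 14 and 6 of 13 alternatives. At 72 to 240 young libraries held 178 to 506 CPM, and old libraries at 96 to 240 172 to 753, the highest in old 120 replicate 2.

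Arg1 (chr10:24915221-24927484, minus strand), arginase, which splits off urea, was at 897, 1141 and 975 CPM in young liver before and 835, 791 and 759 at 48. Old liver was at 987, 922 and 1197 before and 891, 1644 and 542 at 48, where replicate 2 was above every library from before and replicate 3 below. The changes at 48 were -0.34 ± 0.30 and -0.01 ± 0.30 (adjusted p = 0.454 and 0.98). Over all other groups the libraries ran from 675 to 959 CPM in young and 467 to 1682 in old liver.

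Nags (chr11:102145513-102149477, plus strand) was the urea cycle gene that rose. In young liver it was at 71.8, 76.3 and 76.0 CPM before, 152, 128 and 212 at 48 and 139.8, 140.2 and 148 at 72. The 96 libraries held 99.9, 99.4 and 113, the 120 libraries 99.0, 98.0 and 105 and the 240 libraries 79.4, 96.5 and 79.2, so that every later library was above those from before. Its changes were 1.13 ± 0.24 at 48 (adjusted p = 0.000963) and 0.93 ± 0.24 at 72 (0.00849), kept in all 13 alternatives each. In old liver it was at 78.2, 89.8 and 87.4 before, 127, 45.8 and 139 at 48, 109, 187 and 144 at 72 and 98.2 to 151 later. Replicate 2 at 48 was below the libraries from before and the other libraries above. The old change was 0.29 ± 0.24 at 48 (0.395), 0.68 ± 0.18 without replicate 2 (adjusted p = 0.0112), and 0.78 ± 0.24 at 72 (0.0311), where the call was lost without any 1 of the old before libraries or without old 72 replicate 2 or 3. The carriers Slc25a15, for ornithine, and Slc25a13, for aspartate and glutamate, stayed within 368 to 942 and 80.4 to 252 CPM over the 36 libraries.

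**Figure D3:**
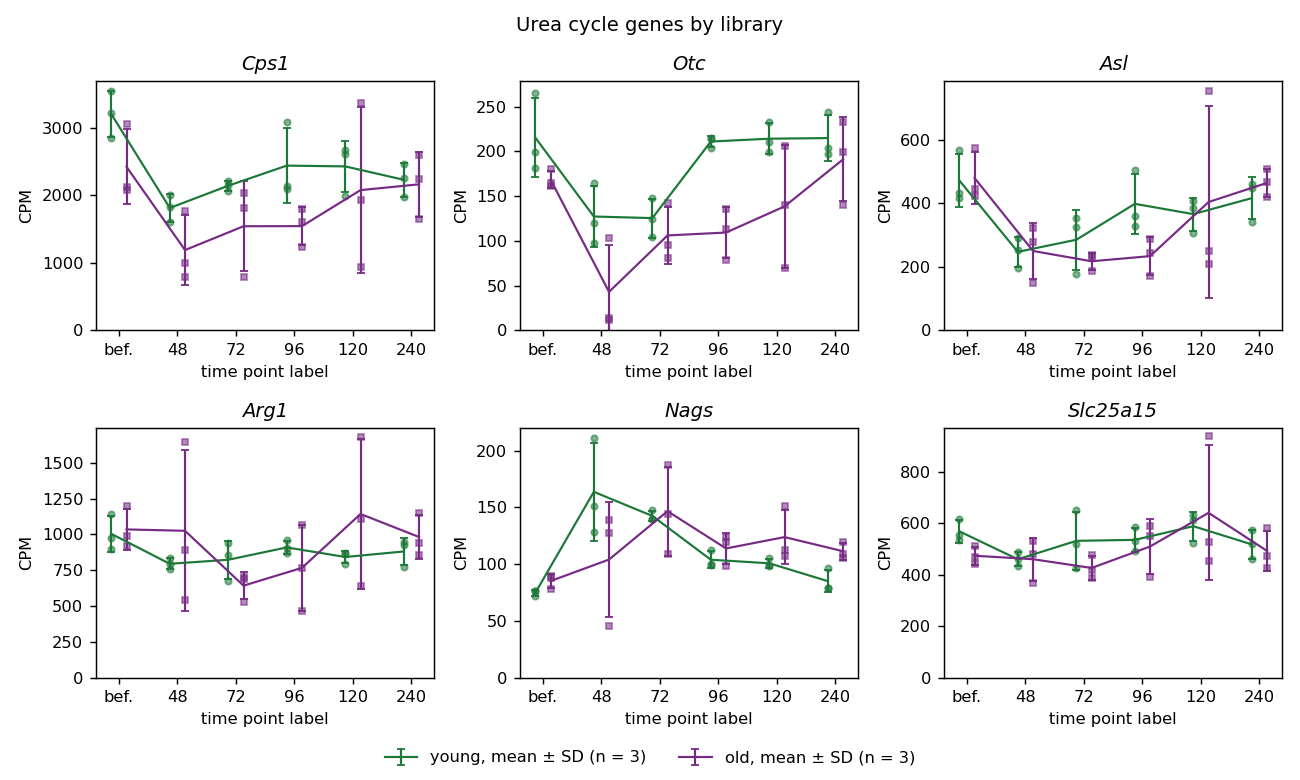
Level in CPM of 6 urea cycle genes by time point label (evenly spaced) in young and old liver; points are libraries, lines and bars the mean ± SD of 3. Nags climbs from 71.8 to 76.3 CPM before to 128 to 212 CPM at 48 in young liver, while Otc drops to 11.6, 14.4 and 103 CPM in the old 48 libraries.

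The 5 tyrosine genes were led by Hgd, and each of them fell in at least 1 group: Tat, Hgd and Fah in young liver at 48, Hpd, Hgd and Gstz1 in old liver at 48. Hgd (chr16:37580153-37632020, plus strand), homogentisate dioxygenase, which opens the ring of a tyrosine breakdown product, stood at 141, 131 and 146 CPM before, 40.5, 46.8 and 47.6 at 48 and 94.8, 55.4 and 83.7 at 72 in young liver. Old liver held 106, 104 and 118 before, 31.6, 24.5 and 47.9 at 48 and 38.6, 56.2 and 53.6 at 72. No library at 48 or 72 reached the lowest from before of its age. Hgd fell by 1.63 at 48 and 0.84 at 72 on the log2 scale in young liver (SE 0.24 and 0.23; adjusted p = 1.26e-05 and 0.014). In old liver it fell by 1.65 and 1.14 (SE 0.24 and 0.24; 3.46e-05 and 0.00202). The level at 48 was 32.3% of that before in young and 31.8% in old liver. Later libraries held 69.7 to 124 CPM in young and 57.5 to 122 in old liver. The call at 48 held in all 13 alternatives in young and all 14 in old liver, and that at young 72 was lost without young before replicate 3 or young 72 replicate 2.

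Gstz1 (chr12:87147165-87164723, plus strand), maleylacetoacetate isomerase, was at 743, 699 and 845 CPM before and 590.4, 348 and 548 at 48 in old liver, a change of -0.62 ± 0.16 (adjusted p = 0.00676) that was lost without old before replicate 3 or old 48 replicate 2. In young liver it was at 735, 745 and 825 and 675, 756 and 574, ranges that overlapped (-0.20 ± 0.16; 0.41). Tat, tyrosine aminotransferase, the entry step, was low in the young libraries at 48 and far apart among the old ones. Young liver went from 2476, 2899.8 and 2007 CPM to 1157, 1142 and 1219, and old liver from 1768, 2010.3 and 3341 to 2245, 4094 and 1199.8, with replicate 2 the highest of all 36 libraries. The changes were -1.07 ± 0.37 (adjusted p = 0.0386) and 0.08 ± 0.37 (0.895). At 72 old libraries were at 819.5, 582 and 1109 and the change was -1.5 ± 0.38 (0.00879). The young call was lost in 8 of 13 alternatives, and the call at old 72 without old before replicate 3 or old 72 replicate 2. Fah, which cleaves fumarylacetoacetate, fell by 0.77 at 48 in young liver (0.0195). Hpd, which makes homogentisate, fell by 1.5 at 48 in old liver (0.0215), from 317, 506 and 589 CPM to 232, 22.5 and 244. The Fah call was lost without young before replicate 2 or young 48 replicate 3, and the Hpd call without old before replicate 2 or 3.

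Among the 6 tryptophan genes Haao had the most calls. Haao (chr17:83831156-83847963, minus strand), which opens 3-hydroxyanthranilate on the way to NAD, was at 229, 187 and 197 CPM before, 111, 123 and 88.2 at 48 and 124, 96.7 and 140.0 at 72 in young liver, where the 96 libraries held 220.1, 178 and 203. In old liver the same groups held 209.9, 231 and 257, 84.2, 31.4 and 88.0, 91.9, 136 and 117 and 111, 113 and 123. At 96 the young range overlapped that from before and the old range did not. The young changes were -0.93 ± 0.23 at 48 and -0.77 ± 0.23 at 72 (adjusted p = 0.00397 and 0.021). The old changes were -1.78 ± 0.24, -1.02 ± 0.23 and -1.01 ± 0.23 at 48, 72 and 96 (1.07e-05, 0.00435 and 0.00809). The young call at 72 was lost in 4 of 13 alternatives, among them without young before replicate 1 or young 72 replicate 1 or 2. The old call at 48 was lost with only the 2 groups in the fit, and that at 96 without old before replicate 3. At 120 and 240 young libraries held 156 to 217 CPM and old libraries 115 to 209.7.

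Afmid (chr11:117825924-117839908, plus strand), which hydrolyses formylkynurenine and whose exons overlap those of the proliferation gene Tk1, was at 115, 211 and 289 CPM before and 17.6, 3.85 and 78.3 at 48 in old liver, with replicate 2 lowest. Young liver was at 165, 203 and 188 and 118, 154 and 78.4. The old change was -2.62 ± 0.55 (adjusted p = 0.00149), and -1.36 and not called with replicate 3 alone; the young change was -0.67 ± 0.52 (0.391). Tdo2, which takes tryptophan into the pathway, fell in young liver at 48 by 1.56 (0.0119), from 631, 752 and 704 CPM to 209, 283 and 218, a call lost without young 48 replicate 1 or 3. Kmo and Kynu passed in no comparison with before. Acmsd, which diverts the pathway away from NAD, was at 23.7, 23.6 and 26.2 CPM before and 62.1, 64.2 and 112 at 48 in young liver without overlap, a change of 1.70 ± 0.76 that did not pass (0.112). In old liver at 120 it was at 19.9, 372 and 56.7 CPM (2.36 ± 0.76; 0.0772).

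In serine, glycine and glyoxylate metabolism the calls were for Sds, Sdsl, Gldc and Agxt. Sds (chr5:120476526-120483932, plus strand), serine dehydratase, which makes pyruvate from serine, was at 166, 111 and 172 CPM in old liver before, 38.5, 47.6 and 31.3 at 48 and 32.0, 45.6 and 96.5 at 72, and the 96 libraries held 49.4, 27.1 and 54.3. None of these 9 later libraries reached the lowest from before. It fell by 1.93, 1.36 and 1.79 on the log2 scale (SE 0.46, 0.45 and 0.46; adjusted p = 0.00382, 0.0476 and 0.02), and the call at 72 was lost in 8 of 13 alternatives and that at 96 without old before replicate 3 or old 96 replicate 1 or 2. In young liver it was at 141, 184 and 85.0 before, 73.4, 59.0 and 63.6 at 48 and 65.8 to 211 later, with a change at 48 of -1.06 ± 0.45 (0.0928). Sdsl, its neighbour on chromosome 5, encodes a related protein and was low, at 5.17, 2.90 and 3.88 CPM before and 7.11, 27.3 and 4.09 at 48 in old liver. Its rise of 1.69 ± 0.56 (0.0289) came with overlapping ranges and was 0.07 with replicate 3 alone, and the call was lost without old before replicate 2 or 3 or old 48 replicate 2.

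Agxt (chr1:93135240-93145421, plus strand), which detoxifies glyoxylate in peroxisomes, was at 143, 245 and 222 CPM before and 90.0, 111 and 79.3 at 48 in young liver, and at 136, 209 and 178 and 86.9, 44.6 and 108 in old liver. The ranges at 48 were below those before in each age. The changes were -1.12 ± 0.33 (adjusted p = 0.0139) and -1.12 ± 0.33 (0.014); the old call was lost without old before replicate 2 or old 48 replicate 2, and the young call without young before replicate 2 or young 48 replicate 1 or 3. None of the glycine cleavage genes Gldc, Amt and Gcsh was called lower against before. Gldc was at 124, 87.6 and 87.4 CPM before and 156, 223 and 148 at 120 in old liver, a rise of 0.82 ± 0.23 (0.0422). The Gldc call was lost without old before replicate 2 or 3 or old 120 replicate 1 or 2, and with only the 2 groups in the fit.

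Of the 4 histidine genes 3 fell in old liver at 48, Hal, Uroc1 and Amdhd1, and none passed in young liver. Hal (chr10:93488768-93519304, plus strand), histidine ammonia-lyase, was at 407, 445 and 475 CPM before, 126, 48.2 and 104 at 48 and 153, 286 and 233 at 72 in old liver, where the 96 libraries held 88.0, 139 and 305. The old ranges at 48, 72 and 96 lay below that from before. In young liver it was at 258, 446 and 465 before and 205, 265 and 121 at 48, where 1 library was above the lowest from before. The changes at 48 were -2.25 ± 0.45 (adjusted p = 0.000748) and -0.99 ± 0.43 (0.101). Uroc1 (chr6:90333284-90364551, plus strand), urocanate hydratase, was at 402, 431 and 494 and 92.9, 36.3 and 226 in old liver and at 301, 411 and 332 and 299, 296 and 184 in young liver. Its changes were -1.90 ± 0.36 (0.00049) and -0.42 ± 0.35 (0.424). With replicate 3 alone the old changes were -2.07 for Hal and -0.95 for Uroc1, neither of them called. Amdhd1, the next enzyme, fell by 0.86 (0.012), a call lost without old before replicate 3 or old 48 replicate 2. Ftcd, which passes the last carbon to folate, had -0.15 ± 0.19 (0.593).

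Prodh had the most calls among proline, glutamine and transamination genes. Prodh (chr16:18060357-18090203, minus strand), proline dehydrogenase, was at 121, 149 and 88.9 CPM before and 61.0, 63.4 and 29.6 at 48 in young liver. At 96 its young libraries were at 229, 161 and 179, all above those from before. Old liver held 97.0, 153 and 194 before, 33.3, 15.4 and 36.0 at 48 and 55.6, 51.7 and 67.6 at 72. The 96 libraries were at 67.8, 69.3 and 107, the 120 libraries at 63.3, 75.0 and 115 and the 240 libraries at 133, 158 and 217. The ranges at 48 and 72 lay below that from before. It fell by 1.22 at 48 in young liver (SE 0.30; adjusted p = 0.00375) and by 2.39 and 1.34 at 48 and 72 in old liver (SE 0.31 and 0.30; 1.07e-05 and 0.00393). These calls held in every alternative run for them. The level at 48 was 42.8% of that before in young and 19.1% in old liver.

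Gpt (chr15:76695716-76699686, plus strand), alanine aminotransferase, was at 422, 551 and 695 CPM before and 332, 117 and 247 at 48 in old liver and at 512, 627 and 539 and 488, 534 and 339 in young liver. Only the old ranges were apart. The changes were -1.26 ± 0.25 (adjusted p = 0.000743) and -0.30 ± 0.25 (0.42), and with replicate 3 alone the old change was -1.15. The old call was lost with only the 2 groups in the fit (adjusted p = 0.124). Aldh4a1, which completes proline breakdown, and Gls2, the liver glutaminase, fell in old liver at 48 by 1.47 and 2.18 (0.000807 and 0.00127). In old liver Gls2 was at 312, 455 and 551 CPM before and 132, 48.8 and 109 at 48. Got1, cytosolic aspartate aminotransferase, fell in young liver at 48 by 1.13 (0.0386) and had -0.12 ± 0.39 in old liver; the young call was lost in 6 of 13 alternatives. Prodh2 was not called in either age.

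For methionine and sulfur, Cdo1 fell in young liver and Gnmt and Cth in old liver at 48. Cdo1, cysteine dioxygenase, which commits cysteine to taurine and sulfate, was at 1025, 1484 and 1506 CPM before, 536, 842 and 477 at 48 and 354, 498 and 700.4 at 72 in young liver. Old liver had 976, 1131 and 1332, 636, 1022 and 725 and 633, 666 and 505. The young ranges at 48 and 72 and the old range at 72 were apart from before, and the old range at 48 was not. Cdo1 changed by -1.11 ± 0.28 and -1.37 ± 0.28 in young liver (adjusted p = 0.00406 and 0.00145, each kept in 13 of 13 alternatives). In old liver the values were -0.53 ± 0.28 and -0.93 ± 0.28 (0.161 and 0.0263), and the call at 72 was lost without old before replicate 2 or 3 or old 72 replicate 1 or 3.

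Gnmt (chr17:46725664-46729168, minus strand), which uses up S-adenosylmethionine, was at 1043, 939 and 1259 CPM before, 400.1, 67.9 and 467 at 48 and 374, 559.5 and 501 at 72 in old liver, ranges that did not overlap. It changed by -1.79 ± 0.40 and -1.18 ± 0.39 (adjusted p = 0.00183 and 0.0451), the second lost in 8 of 13 alternatives. Young liver held 1011, 799 and 897 before and 705, 743 and 463 at 48 (-0.50 ± 0.38; 0.381). Cth, cystathionine gamma-lyase, had the lowest fold change of the 41 in both ages at 48: -1.65 ± 0.66 in young, which did not pass (0.0764), and -2.68 ± 0.69 in old liver (0.00688). Its libraries from before were themselves far apart, at 114, 202 and 349.7 and 122, 158 and 338 CPM. The old call was lost without old before replicate 3 and with only the 2 groups in the fit. Mat1a, which makes S-adenosylmethionine, was at 3483, 4192 and 5746 before and 7577, 9149 and 4090.4 at 48 in old liver, a change of 0.63 ± 0.37 (0.216). Mat1a, Bhmt and Cbs passed in no comparison with before. Aass (chr6:23072173-23132986, minus strand), the lysine enzyme, was at 462, 322 and 429 and 256, 257 and 225 in young and at 218, 291 and 591 and 178, 282 and 155 in old liver before and at 48, with changes of -0.72 ± 0.32 and -0.84 ± 0.32 (0.11 and 0.0564).

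**Figure D4:**
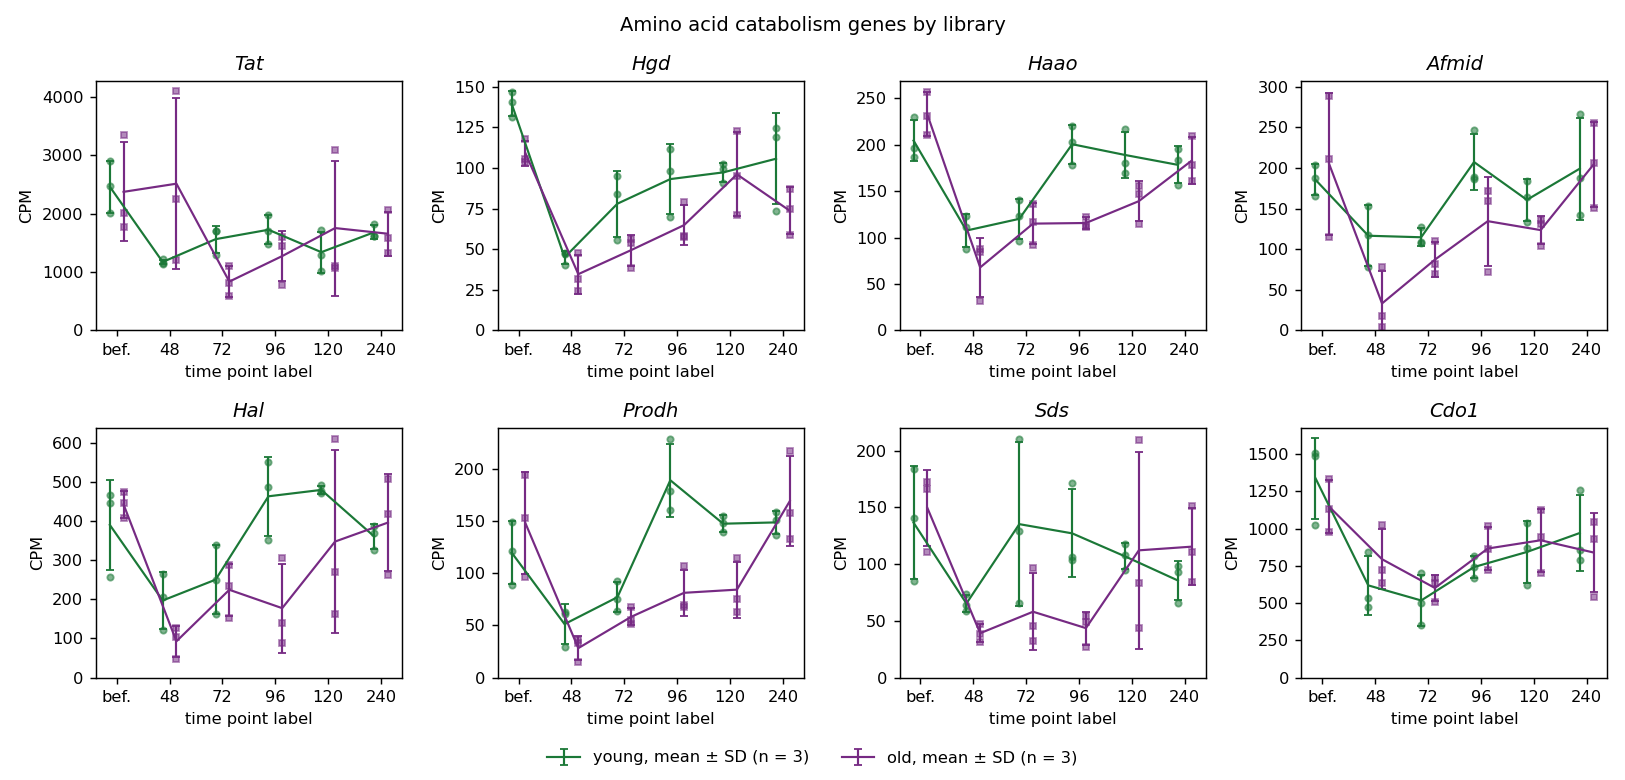
Level in CPM of 8 amino acid catabolism genes by time point label (evenly spaced) in young and old liver; points are libraries, lines and bars the mean ± SD of 3. Hgd, Haao and Prodh drop at 48 in both ages, while Tat at 48 is at 1142 to 1219 CPM in young and 1199.8 to 4094 CPM in old liver.

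In all, 27 of the 41 tested members were called in at least 1 of the 10 comparisons with before, with 42.1% of all tested genes. They were 8 called in both ages, 16 in old only and 3 in young only, against 15.2%, 14% and 12.9% of all genes. The other 15 of the 42, Ass1 included, were called in none. A call in 1 age and not the other is no test of the difference between the ages, which follows.

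Old liver was compared with young liver at each time point. Before, no member was called (0.0595% of all genes; 0 with an unadjusted p under 0.05; 0 by DESeq2), and the median log2 fold change was -0.03. At 48, 7 of 41 were lower in old liver and none higher, with 11.2% of all genes called and 6.78% lower: Otc, Afmid, Kmo, Gcsh, Uroc1, Aldh4a1 and Gpt. The median over the 41 was -0.43 against 0.02 over all genes. Of 12 proliferation genes, 11 were lower in old liver at 48. 

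These 7 calls rested on the old 48 libraries. With replicate 3 as the only old 48 library no member was called (0.0703% of all genes) and the median was -0.29. Without replicate 2 only Aldh4a1 remained, at -0.89 ± 0.19 (adjusted p = 0.00624; 5.01% of all genes called), and without replicate 3 there were 15 calls (16% of all genes). The count was 3 without young 48 replicate 1 and 2 without young 48 replicate 2. It was 0 with only the 2 groups in the fit, 4 with no filter on low counts and 11 by DESeq2. Over all genes DESeq2 also called more, 1678 against 1505.

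Kmo (chr1:175620381-175662116, plus strand), kynurenine 3-monooxygenase, was at 473, 399 and 527 CPM in young and 333, 191 and 249 in old liver at 48, without overlap (-0.86 ± 0.21; adjusted p = 0.00654). Aldh4a1 (chr4:139622866-139649690, plus strand) was at 456, 512 and 349 and 205, 51.7 and 271, every old library below every young one (-1.32 ± 0.30; 0.00374). Gcsh (chr8:116981810-116993537, minus strand), the carrier protein of glycine cleavage, was at 116, 118 and 98.3 and 99.1, 37.7 and 66.9, with 1 old library within the young range (-0.71 ± 0.20; 0.0203). For the genes given above the differences were -1.56 ± 0.49 for Otc (0.0376), -1.81 ± 0.54 for Afmid (0.0297), -1.13 ± 0.35 for Uroc1 (0.0355) and -0.97 ± 0.25 for Gpt (0.0107). Old and young ranges at 48 were apart for Gpt, nearly met for Afmid and overlapped for Otc and Uroc1. Tat had the opposite sign, 1.10 ± 0.37 (0.0538), and did not pass.

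**Figure D5:**
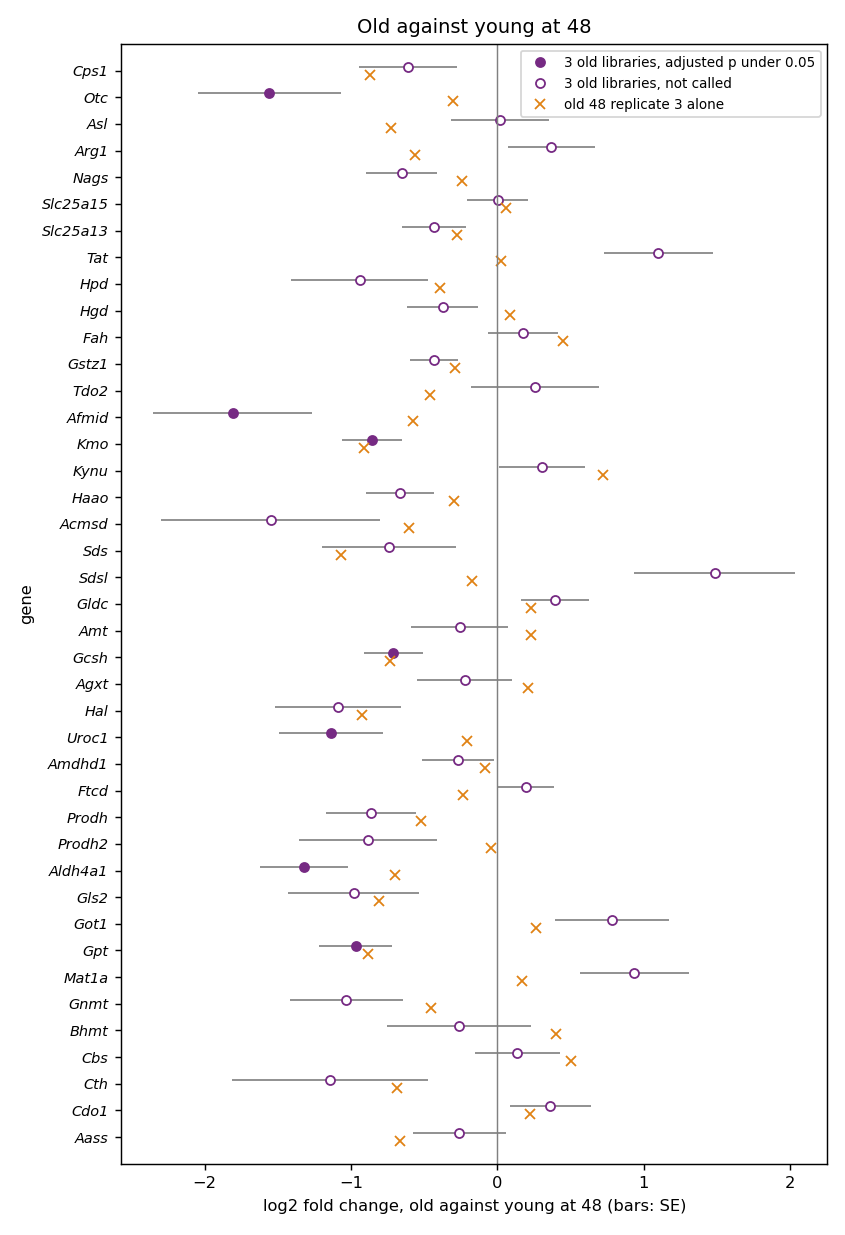
Log2 fold change of old against young liver at 48 for the 41 tested genes, with SE bars from 3 libraries per age (circles, filled where the adjusted p was under 0.05) and with old 48 replicate 3 as the only old library (crosses). The 7 filled circles are all left of 0, and the crosses for Otc, Afmid and Uroc1 lie at -0.30, -0.58 and -0.21.

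No member was called between the ages at 72, 96, 120 or 240, where 0%, 0.171%, 0% and 0.0149% of all genes were. Members with an unadjusted p under 0.05 numbered 3, 14, 2 and 1. DESeq2 called 0, 3, 0 and 0, with 0.119%, 1.61%, 0.29% and 0.0744% of all genes. At 96 the 41 genes had a median of -0.46 against -0.01 over all genes. Of the 41, 35 were negative, against 51.5% of all genes. The smallest adjusted p there was that of Prodh, -1.22 ± 0.30 (0.0613), whose old and young libraries did not overlap. Without old 96 replicate 3 the count at 96 was 2. At 72, 120 and 240 the medians were -0.24, -0.04 and 0.02.

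Averaged over the 6 time points, 4 of 41 members were lower in old liver and none higher, with 5.98% of all genes called and 2.59% lower. Hgd was -0.41 ± 0.10 (adjusted p = 0.00945), Prodh -0.47 ± 0.12 (0.0193), Gpt -0.35 ± 0.10 (0.0372) and Otc -0.65 ± 0.19 (0.0442). Haao and Cps1 followed and did not pass, at -0.29 ± 0.09 (0.0623) and -0.40 ± 0.14 (0.0768). Hgd held in all 43 alternatives, Prodh was lost in 1, with replicate 3 as the only old 48 library, Gpt in 19 and Otc in 30. Leaving out 1 library gave 2 to 8 calls: 8 without old 48 replicate 1, old 48 replicate 3 or old 120 replicate 2, and 2 without young before replicate 2 or 3, young 48 replicate 1 or 2, young 72 replicate 3, young 96 replicate 1, young 120 replicate 1, young 240 replicate 2 or 3, old before replicate 1 or 2, old 72 replicate 1, old 96 replicate 1 or 2, old 120 replicate 1 or old 240 replicate 1. In the test of age by time, which asks whether the changes from before differ between the ages over the 5 later time points, no member was called (2.76% of all genes). It gave 8 members an unadjusted p under 0.05, and the smallest adjusted p was 0.111, for Prodh. DESeq2 called 1 (5.43% of all genes), and without old 48 replicate 3 the test gave 5 calls.

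Per kilobase of exon, the level in young liver before ran from 1354 ± 120.0 CPM per kb (SD, n = 3) for Mat1a and 1023 ± 186 for Tat, through 576 ± 62.2 for Cps1, 451 ± 55.9 for Arg1 and 50.8 ± 10.3 for Otc, to 8.65 ± 0.506 for Acmsd and 2.16 ± 0.627 for Sdsl. The length used was the union of all annotated exons of a gene. A single transcript can be shorter, so the order of genes depends on the annotation.

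Genes of related pathways, from lists that do not hold the members, moved as follows in the same fits. Of 23 genes of branched-chain amino acid breakdown, 5 fell at 48 and 10 at 72 in young liver and 18 at 48 and 7 at 72 in old liver, with none higher; over all genes 9.79%, 8.21%, 12% and 5.81% fell. Their median at 48 was -0.44 in young and -0.76 in old liver. Between the ages, 7 were lower in old liver at 48 and 8 in the average (6.78% and 2.59% of all genes). Without old 48 replicate 2 the counts were 10 lower at old 48, 2 lower in old liver at 48 and 9 in the average, and with replicate 3 as the only old 48 library 3, 0 and 4. Acadsb, a dehydrogenase of isoleucine breakdown, changed by -0.93 ± 0.27 in young and -1.58 ± 0.28 in old liver at 48 (adjusted p = 0.0138 and 0.000219), and Ivd, of leucine breakdown, by -0.11 ± 0.23 (0.785) and -1.40 ± 0.24 (0.000183). Acad8, of valine breakdown, was lower in old than young liver at 48, -0.95 ± 0.17 (0.000835), and in the average, -0.38 ± 0.07 (0.000945), and was -0.60 at 48 and not called with replicate 3 alone.

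Of 32 tested genes of further amino acid catabolism, 7 fell and none rose in young liver at 48, and 16 fell and 3 rose in old liver at 48, where 12% of all genes fell and 12.1% rose. Without old 48 replicate 2 they were 15 and 1, and with replicate 3 alone 3 and 1 (16.8% and 4.32% of all genes called). Qdpr, which regenerates the cofactor of phenylalanine hydroxylation, fell at 48 by 1.03 in young and 1.52 in old liver (0.000532 and 1.73e-05). Dhtkd1 and Gcdh, of lysine and tryptophan breakdown, fell in old liver at 48 by 1.77 and 1.24 (0.000104 and 0.000217). Of 9 tested amino acid synthesis genes, 4 rose and 1 fell in young liver at 48, where 12.2% of all genes rose and 9.79% fell, and 2 rose in old liver. Without old 48 replicate 2, 3 rose and 1 fell in old liver, and with replicate 3 alone 1 rose and 1 fell. Psat1, of serine synthesis, rose from 0.916 ± 0.373 CPM (SD, n = 3) to 7.95 ± 3.78 in young and from 1.07 ± 0.595 to 25.6 ± 11.6 in old liver, changes of 3.08 ± 0.66 and 4.54 ± 0.63 (0.000989 and 1.67e-05). The proline synthesis genes Aldh18a1 and Pycrl rose in young liver at 48 by 2.64 ± 0.44 and 1.56 ± 0.25 (5.82e-05 and 4.15e-05), with 0.40 ± 0.37 and 0.47 ± 0.25 in old liver, neither called; without old 48 replicate 2 Pycrl was at 0.75 and called (0.0346).

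Of 14 tested amino acid transporters, 1 rose and 4 fell in young liver at 48, and 3 rose and 3 fell in old liver; without old 48 replicate 2 they were 3 and 2, and with replicate 3 alone 1 and 1. Over all genes at 48, 12.2% rose and 9.79% fell in young liver and 12.1% rose and 12% fell in old liver. These shares also apply to the regulators below. Slc38a4, a neutral amino acid transporter of hepatocytes, fell by 1.23 and 1.51 at 48 (0.00223 and 0.00049), and Slc1a4 rose by 3.08 ± 0.63 and 2.37 ± 0.60 (0.000753 and 0.0057). Slc3a2, the shared heavy chain of several exchangers, rose in old liver, 1.36 ± 0.25 (0.000279), and was higher than in young liver at 48 by 1.10 ± 0.24 (0.00327); with replicate 3 alone these were 0.51 and 0.22, neither called. Of 13 regulators, 4 fell in young liver at 48, and 4 fell and 2 rose in old liver; without old 48 replicate 2 they were 2 and 1, and with replicate 3 alone 0 were called. Nr3c1, the glucocorticoid receptor, changed by -0.56 ± 0.19 and -0.94 ± 0.19 (0.0285 and 0.000662). Sirt3, a mitochondrial deacetylase, changed by -0.89 ± 0.16 and -0.67 ± 0.16 (0.000186 and 0.00386). Atf4, a factor of the amino acid response, rose in old liver by 0.80 ± 0.17 (0.00105) and had 0.32 ± 0.17 in young liver (0.171).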

How the data were processed

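RNA of 36 mouse livers was counted per gene. The deposited files hold raw read counts per gene symbol, which the authors made with STAR 2.7.5b and featureCounts on GRCm38, per the submitters' processing notes; the gene annotation and strand setting are not given in the sources used here. Per the labels' protocols, RNA of young livers carried ERCC spike-in mix 1 and RNA of old livers mix 2, so mix and age cannot be told apart; the tables hold 0 ERCC rows, and scaling used genes alone.

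Counts were filtered with filterByExpr, scaled by TMM and fitted over all 12 groups with edgeR 4.0.16's robust quasi-likelihood test in R 4.3.3. Benjamini-Hochberg adjustment ran over 13436 genes, with calls made below an adjusted p of 0.05. CPM use TMM-scaled totals, and libraries were compared as log2(CPM + 1). SE is the log2 fold change divided by the square root of its F. The fit was tested on simulated data. Alternatives were DESeq2 1.42.0, other scalings, no filter, a term for Y-linked transcripts, a replicate block, fits to the compared groups alone and the removal of each library in turn. Gene coordinates and overlaps are from the GENCODE annotation of GRCm38.

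Members and lists were chosen with earlier results of these data known. Values by library are given for Cps1, Otc, Ass1 (as counts), Asl, Arg1 and Nags, for the 2 members of each other pathway with the smallest adjusted p against before, for members called between the ages, and for the 6 smallest p in the average over time; other members described were chosen after their values were seen. Total counts limit the precision of low genes.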

Additional observations from a re-analysis of the deposited data

How the results depend on the processing

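The 58 calls of single members were refitted in 901 alternatives, of which 686 kept the call, 215 lost it and 0 reversed it; 13 calls were lost in none. With only the groups compared in the fit, the calls against before were 21 at young 48, 9 at young 72, 2 at young 96 and 2 at young 120. The shares of all genes were 27%, 16.1%, 4.86% and 2.34%. Old liver had 5 at 48, 5 at 96 and 0 at 120 against before (1.79%, 3.34% and 1.64%). Old against young had 0 at 48 and 2 at 96 (0.00819% and 0.885%). DESeq2 gave 6 at old 96, 3 at old 120 and 11 and 3 for old against young at 48 and 96. It gave 7 in the average and 1 for age by time. DESeq2 also called more of all genes: 8.07% at old 96 and 5.93% at old 120, against 6.82% and 3.87% as reported. For old against young it called 1678 genes at 48, against 1505 as reported, and 1.61% at 96, against 0.171%. In the average it called 7.7%, against 5.98%, and for age by time 5.43%, against 2.76%. With a term for Y-linked transcripts there were 5 at old 96 and 1 for old against young at 96 (8.54% and 0.908% of all genes). With no filter on low counts there were 4 for old against young at 48 (5.73%). With replicate 3 as the only old 48 library, an alternative chosen after seeing the data, there were 5 at old 48 and 0 for old against young at 48. The cause of these changes was not tested. Total-count scaling moved the median of all genes by over 0.1 in 4 comparisons with before, by 0.11 at young 48, 0.20 at young 72, 0.11 at young 96 and 0.12 at old 72, and the members' median at young 72 to -0.09; at young 96 it turned positive (0.08), as it did at old 240 (0.04).

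Leaving out 1 library gave 6 to 9 calls at young 48, 2 to 5 at young 72 and 0 at young 96, 120 and 240. In old liver it gave 13 to 22 at 48, 3 to 6 at 72, 0 to 7 at 96, 0 to 2 at 120 and 0 at 240. For old against young it gave 1 to 15 at 48, 0 to 2 at 96, 2 to 8 in the average, 0 to 5 for age by time, and 0 before and at 72, 120 and 240. For most of these fits the share of all genes called is not given.

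The replicate numbers did not pair the libraries. Same-numbered libraries of an age correlated at a mean r of 0.06 (-0.38 to 0.58), with 38 of 90 pairs over 0.1, and 15 of 36 libraries correlated best with their own number. With the replicate block there were 6 calls at old 96, 1 for old against young at 96 and 1 for age by time. The shares of all genes were 7.64%, 0.7% and 2.87%. Every other count stayed within 1.5 times that reported. Low counts limit Ass1 and Sdsl.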

Other observations

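Y-linked transcripts were present in 12 of the 36 libraries and nearly absent in 24, and the labels do not give the animals' sex. In a fit with a term for them, 2 of 41 members were called, with 8.4% of all genes called: Agxt was lower in the 12 libraries (-0.44 ± 0.12 on the log2 scale, adjusted p = 0.0181), at 118 ± 36.4 CPM (SD, n = 12) against 163 ± 57.2 (SD, n = 24), the same sign in 10 of 12 groups, and Kmo was higher (0.25 ± 0.08, adjusted p = 0.0403), at 391 ± 59.1 against 331 ± 65.0 CPM, also in 10 of 12 groups.

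Old 120 replicate 2 held the largest share of counts in the 42 genes of any library, 2.96%, against 1.44% and 1.86% in the other old 120 libraries. Acmsd was at 372 CPM there against 19.9 and 56.7, Asl at 753 against 211 and 249.9, Gls2 at 621 against 94.2 and 248, and Sds at 209.6 against 43.8 and 83.1. Its summed hepatocyte markers were 87133 CPM, against 58176 and 51748 in the other two.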
